A study of Mus musculus with 24 samples.

Results

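In macrophages grown from mouse bone marrow, 844 chromatin regions were detected unevenly between streptozotocin-diabetic and control mice before any stimulus, by 4 or more of 6 libraries, and by fewer than 4 after one. They come from ATAC-seq peak lists, 1 per library, whose peaks were joined into 102580 regions wherever any 2 of them shared 1 bp or more. The regions were chosen by their measured detections: a region was taken where the number of unstimulated libraries with a peak differed by 4 or more between the phenotypes, with 6 libraries each, and where the same difference among stimulated libraries was under 4. The 844 regions were 0.823% of all merged regions. Of these, 372 were found in more diabetic than control libraries at rest (diabetic-higher regions) and 472 in more control than diabetic libraries (control-higher regions).

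The 24 libraries came from male C57Bl/6 mice. The groups were diabetic stimulated, control stimulated, diabetic unstimulated and control unstimulated macrophages, with 6 libraries each. Diabetes had been induced with streptozotocin (STZ), a toxin taken up by insulin-producing beta cells, and control mice were not diabetic. Stimulated cells received 100 ng/mL lipopolysaccharide (LPS), a bacterial wall component, and 10 ng/mL interferon gamma (IFNγ), and unstimulated cells received neither. The series description states that material from each of 6 diabetic and 6 control mice was divided between both states. The sources used here give neither the age of the mice nor the duration of diabetes. The stimulation time is uncertain, since the only time in the labels, 6 h, is tied to IL-1β, which no group received according to its label.

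ATAC-seq uses the Tn5 transposase, which inserts sequencing adapters where DNA is not wrapped tightly, so that reads pile up at promoters and enhancers in use. In macrophages, lineage factors such as PU.1 and C/EBP keep a standing set of enhancers open, and LPS with IFNγ brings NF-κB, AP-1, IRF and STAT factors to this set and opens further sites. Macrophages from diabetic animals are widely studied for marks left on this landscape by high glucose, which is why a resting difference and its fate under a stimulus are of interest.

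A few of the chosen regions overlap annotated promoters, and the leading 4 of these are shown. They were ranked by the largest resting difference and then by the smallest stimulated difference. The 4 include both directions and range from AT-rich to CpG-rich sequence. Each line gives the 250 bases upstream of the transcription start in RefSeq (GRCm38.p6, the assembly of mm10), 5′ to 3′ on the gene's strand, and capitals mark CpG dinucleotides. The first is the promoter of the RefSeq gene Gm32312 on the minus strand (chr16:27326642-27326891), within the body of Ostn. The second is that of Prrc2b on the plus strand (chr2:32150898-32151147). The third is that of Smad9 on the plus strand (chr3:54755332-54755581), and the fourth that of Zmynd10 on the plus strand (chr9:107547054-107547303).
Gm32312 promoter: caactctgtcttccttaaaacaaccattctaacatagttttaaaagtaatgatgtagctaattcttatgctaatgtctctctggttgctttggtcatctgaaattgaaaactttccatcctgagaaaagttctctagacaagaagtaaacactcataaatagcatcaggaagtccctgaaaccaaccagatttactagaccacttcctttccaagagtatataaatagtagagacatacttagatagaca
Prrc2b promoter: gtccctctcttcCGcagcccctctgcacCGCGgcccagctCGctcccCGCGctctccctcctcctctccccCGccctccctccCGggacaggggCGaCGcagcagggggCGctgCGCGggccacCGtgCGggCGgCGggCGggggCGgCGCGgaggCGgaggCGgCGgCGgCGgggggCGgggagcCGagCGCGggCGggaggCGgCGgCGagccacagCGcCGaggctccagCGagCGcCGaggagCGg
Smad9 promoter: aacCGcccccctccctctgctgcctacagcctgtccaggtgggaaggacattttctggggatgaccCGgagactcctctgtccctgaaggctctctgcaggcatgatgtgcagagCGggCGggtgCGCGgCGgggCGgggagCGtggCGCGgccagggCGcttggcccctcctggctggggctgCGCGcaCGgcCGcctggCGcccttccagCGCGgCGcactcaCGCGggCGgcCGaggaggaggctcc
Zmynd10 promoter: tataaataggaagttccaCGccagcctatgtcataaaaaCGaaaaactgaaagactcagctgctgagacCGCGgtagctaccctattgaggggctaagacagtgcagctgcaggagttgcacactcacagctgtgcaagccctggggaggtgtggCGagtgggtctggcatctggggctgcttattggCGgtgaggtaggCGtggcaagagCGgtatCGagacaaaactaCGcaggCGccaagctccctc
The Gm32312 promoter held no CpG and 34.4% G and C, and it carried the single motif match among these 4 windows, an interferon-stimulated response element starting at base 100. The Prrc2b promoter held 40 CpGs, that of Smad9 24 and that of Zmynd10 11. The merged regions covered 168 of the 250 bases at Gm32312, 168 at Prrc2b, 188 at Smad9 and all 250 at Zmynd10.

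The region at the Gm32312 promoter was control-higher. It had no peak in any diabetic stimulated or control stimulated library, a peak of 9 tags in 1 diabetic unstimulated library, and peaks of 7 to 10 tags in all 6 control unstimulated libraries. The Prrc2b region was diabetic-higher, with peaks in 4 diabetic stimulated, 4 control stimulated, 6 diabetic unstimulated and 1 control unstimulated library. The Smad9 region, at a gene of BMP signalling, was diabetic-higher and was found in 2 diabetic stimulated, 1 control stimulated, 5 diabetic unstimulated and no control unstimulated libraries. The Zmynd10 region, at a gene needed to assemble the motors of cilia, was control-higher, with 5 diabetic stimulated, 5 control stimulated, 2 diabetic unstimulated and 6 control unstimulated libraries. Of the 4 promoters, the one with no CpG was found in no stimulated library and the other 3 were found in some. The Marco promoter, described below, also held no CpG, and its region was found in a diabetic stimulated library. A link between CpG content and fate was not tested.

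The libraries themselves differed little between phenotypes at rest. Their peak number averaged 55522 ± 4925 in diabetic unstimulated and 55990 ± 3486 in control unstimulated macrophages (SD, n = 6 each, two-sided exact permutation p = 0.859). After stimulation it averaged 53703 ± 4511 in diabetic and 47268 ± 4535 in control macrophages (SD, n = 6 each, two-sided exact permutation p = 0.0346). Relative depth, read from the lowest background level in each list, ranged from 0.664 to 1.007 tags over the 24 libraries, and no read totals were at hand. Of the regions nearest to macrophage marker genes, 27 of 83 were found in every library, and over all protein-coding genes 20713 of 71009 were. The counts at markers of other cells were 5 of 30 (neutrophil), 6 of 31 (T and NK cell), 0 of 21 (B cell), 4 of 10 (erythroid and megakaryocytic), 7 of 56 (stromal and endothelial), 13 of 53 (dendritic cell) and 0 of 14 (mast cell and basophil), so these counts do not set macrophage markers apart from every other list. Whether a number in a sample title marks the same mouse in both states is not stated, and the p-values measure the spread between libraries.

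The chosen regions sat close to the threshold that chose them. The resting difference was exactly 4 libraries in 315 of the diabetic-higher and 396 of the control-higher regions, 5 in 54 and 72, and 6 in only 3 and 4. Just outside the rule, 1410 regions differed by 3 libraries towards diabetic and 1612 by 3 towards control. The most frequent patterns, written as diabetic and control libraries, were 4 and 0 (127 regions), 5 and 1 (113) and 6 and 2 (75) on the diabetic-higher side. On the control-higher side they were 1 and 5 (142 regions), 0 and 4 (139) and 2 and 6 (115). A further 25 regions were uneven by 4 or more in both states and were not chosen, 13 on the same side in both states and 12 on opposite sides. No region of the whole table passed Fisher's exact test between the phenotypes at rest after Benjamini-Hochberg adjustment (0% of 8788 tested regions, smallest adjusted p = 0.972), and 137 had an unadjusted p under 0.05, of which 133 were chosen regions. With 6 libraries against 6, the smallest possible p of Fisher's exact test is 0.00216, so a region could pass only if many others had p-values about as low. The lack of calls therefore does not show that the phenotypes were alike. The contrast also chose the regions, so these counts describe the choice.

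The plot of summit tags shows the 20 leading regions, which are the 10 in each direction with the largest resting difference near a protein-coding gene. Ties were broken by the smallest stimulated difference, which favours regions found equally often in both stimulated groups, including in none. A tag is a read counted at the peak summit, solved from the deposited fold and −log10 p-value. Only 3 diabetic-higher regions were found in all 6 diabetic and no control unstimulated libraries.

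**Figure D1:**
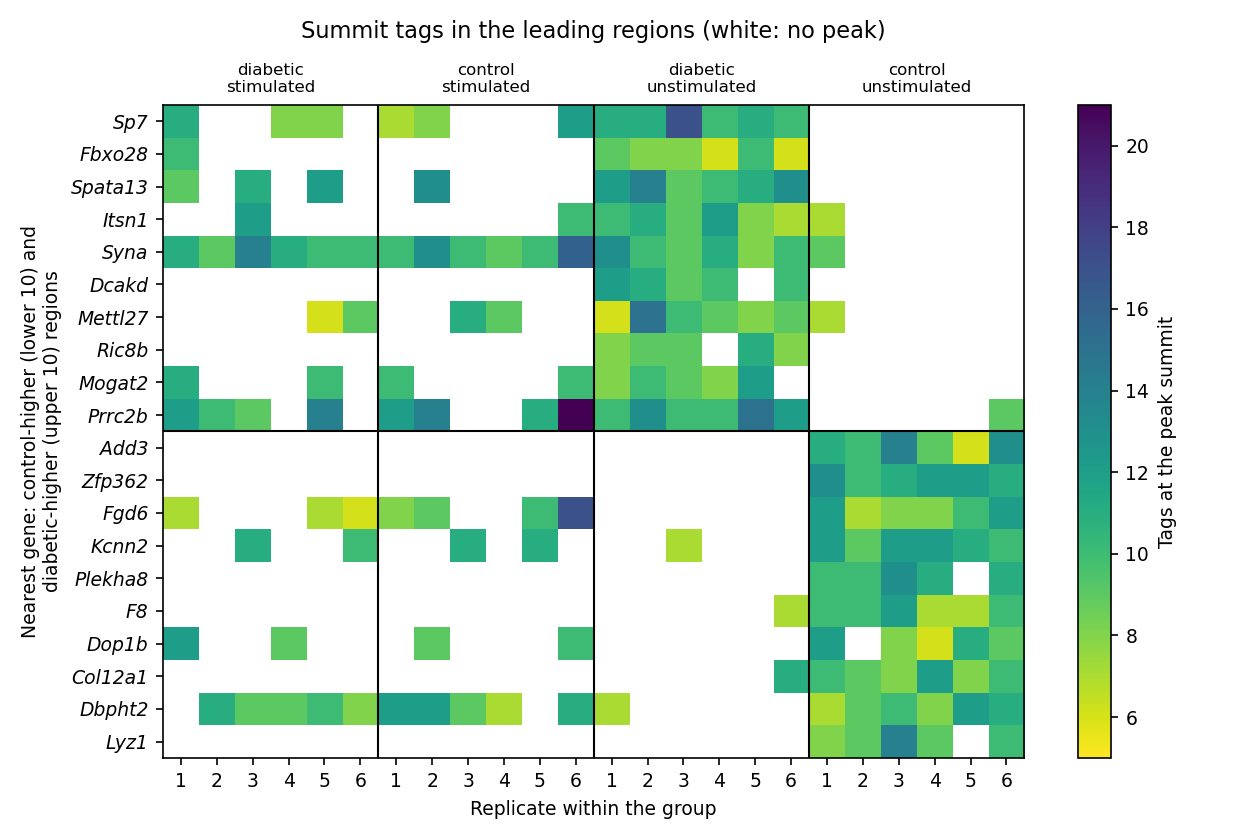
Tags at the peak summit (colour) in the 10 leading diabetic-higher and 10 leading control-higher regions (rows, by nearest gene) in every library (columns, 6 per group, numbered by replicate), with white for no peak. Resting columns are filled on 1 side by the choice of regions, with 6 to 17 tags in most cells, whereas the stimulated columns range from empty (Dcakd, Ric8b, Add3, Zfp362, Plekha8, F8, Col12a1, Lyz1) to filled in all 12 libraries (Syna).

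The first of these lay 10992 bp from Sp7, which encodes the osteoblast factor osterix (chr15:102377825-102378229, mm10). It had 8 to 11 tags in 3 diabetic stimulated libraries, 7 to 12 tags in 3 control stimulated libraries, 10 to 17 tags in all 6 diabetic unstimulated libraries and no peak in control unstimulated libraries. The stimulated libraries thus held it equally often in both phenotypes. The second lay within Fbxo28, the gene of an F-box protein of ubiquitin ligases (chr1:182333965-182334364), and had 6 to 10 tags in the 6 diabetic unstimulated libraries. It had 1 further peak, of 10 tags, in a diabetic stimulated library and was otherwise absent. The third lay within Spata13 (chr14:60744800-60745104). It had 9 to 12 tags in 3 diabetic stimulated libraries, 13 tags in 1 control stimulated library and 9 to 14 tags in the 6 diabetic unstimulated libraries, so its stimulated peaks lay mostly on the resting side.

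The other 7 leading diabetic-higher regions took different courses. The region within Syna, the gene of the placental fusion protein syncytin-A (chr5:134571690-134572275), was found in all 6 diabetic stimulated libraries with 9 to 14 tags and in all 6 control stimulated libraries with 9 to 16 tags. At rest it had 8 to 13 tags in all 6 diabetic libraries and 9 tags in 1 control library. It was found in all stimulated control libraries, which at rest mostly lacked it. Regions within Dcakd (chr11:103021398-103021648) and within Ric8b, the gene of a chaperone of G protein alpha subunits (chr10:84968885-84969257), did the opposite. Each was found in 5 diabetic unstimulated libraries and in no other library of the series. The Itsn1 region, within the gene of an endocytic scaffold, was left in 1 diabetic stimulated and 1 control stimulated library. Regions at Mettl27 and at Mogat2, the gene of an acyltransferase of fat absorption, were each found in 2 diabetic stimulated and 2 control stimulated libraries, and the Prrc2b region in 4 of each.

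Of the 10 leading control-higher regions, 6 were found in no stimulated library, beside 103 of all 472 control-higher regions (21.8%). The tie-break given above favours such regions, so the count of 6 describes the choice. A region 18484 bp from Add3, the gene of the membrane skeleton protein gamma-adducin (chr19:53265631-53265990), had 6 to 14 tags in all 6 control unstimulated libraries and no peak in any of the other 18. A region 868 bp from the zinc finger gene Zfp362 (chr4:128806836-128807124) had the same pattern, with 10 to 13 tags. Their resting peaks are those that chose them.

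Regions within F8, the gene of coagulation factor VIII (chrX:75381289-75381563), and 11890 bp from Col12a1, a collagen gene (chr9:79732885-79733178), were found in no stimulated library, 1 diabetic unstimulated and 6 control unstimulated libraries. Regions within Plekha8, which encodes a glycolipid transfer protein, and 20483 bp from the lysozyme gene Lyz1 were found in 5 control unstimulated libraries and nowhere else. The region 12435 bp from the potassium channel gene Kcnn2 was left in 2 diabetic stimulated and 2 control stimulated libraries, and the Dop1b region likewise. The region within Fgd6 was found in 3 diabetic stimulated libraries with 6 to 7 tags and in 4 control stimulated libraries with 8 to 17 tags. The region 32734 bp from Dbpht2 was found in 5 stimulated libraries of each phenotype, more than any other leading control-higher region.

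The number of chosen regions with a peak was counted in each library. The diabetic-higher regions had a peak in 95 to 161 of 372 places in the diabetic stimulated libraries, in 67 to 168 in control stimulated, in 265 to 353 in diabetic unstimulated and in 30 to 77 in control unstimulated libraries. The control-higher regions had a peak in 123 to 213 of 472 places in diabetic stimulated, in 111 to 172 in control stimulated, in 22 to 116 in diabetic unstimulated and in 360 to 421 in control unstimulated libraries. The resting groups do not overlap because the rule separates them. The means of both stimulated groups lay between those of the resting groups. Single control stimulated libraries, with as few as 67 diabetic-higher and 111 control-higher regions, fell within the range of the lower resting group. The rule takes extreme resting counts, and the part that this plays in the stimulated counts was not tested. The stimulated groups of both phenotypes overlapped in each set. The highest control stimulated value for diabetic-higher regions, 168, came from replicate 6, and the other 5 control stimulated libraries held 67 to 97.

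**Figure D2:**
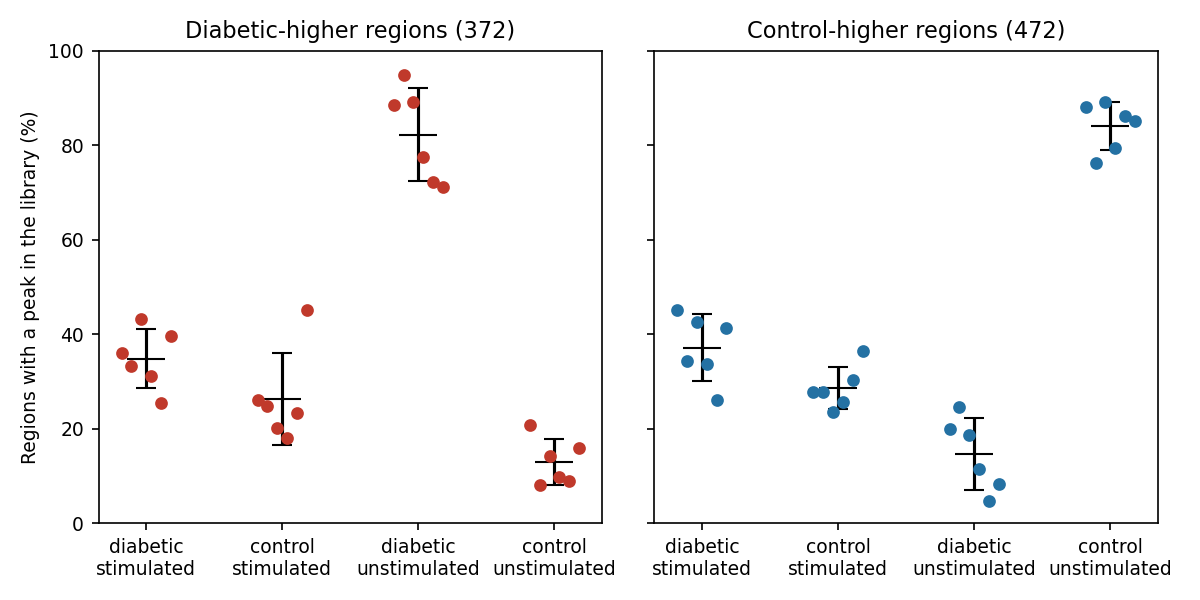
Share of diabetic-higher (left) and control-higher regions (right) with a peak in each library, in percent, where points are the 6 libraries of a group and bars give the mean and SD. The unstimulated groups are apart by the choice of regions, and the stimulated groups of both phenotypes overlap in both panels, with means of 34.8% in diabetic and 26.3% in control stimulated libraries on the left and 37.2% and 28.6% on the right.

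The stimulated difference between phenotypes is bounded under 4 by the rule and is given as a description. Diabetic-higher regions were found on average in 2.09 diabetic stimulated and 1.58 control stimulated libraries, a difference of 0.513 libraries. Control-higher regions, which lean the other way at rest, were found in 2.23 diabetic stimulated and 1.71 control stimulated libraries, a difference of 0.517 libraries in the same direction. As background, 13892 other regions that were also found in 4 to 8 of the 12 unstimulated libraries and differed by under 4 after stimulation were found in 2.24 diabetic and 1.73 control stimulated libraries, a difference of 0.515. All 3 sets thus leaned towards diabetic by about the same amount, beside the larger peak number of the diabetic stimulated libraries given above. With every list shortened to the same number of peaks, 690 regions met the rule, of which only 72 were among the 844. There the differences were 0.269 libraries for diabetic-higher, 0.00811 for control-higher and 0.0816 for the other regions, so the common lean was smaller and the 2 sets were further apart than with all peaks. The diabetic-higher mean also lay above the control-higher one with peaks filtered to a −log10 q-value of 5 (0.595 and 0.480), where a peak had to cover 50% of a region (0.575 and 0.431) and with merged summits (0.480 and 0.426).

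More stimulated diabetic than control libraries held the region in 176 of the diabetic-higher regions, and the reverse held in 70 (47.3% and 18.8%). Of the control-higher regions, 208 were found in more diabetic than control stimulated libraries and 62 in more control libraries (44.1% and 13.1%). The 13892 other regions gave 45.8% and 17.1%, near the shares of both sets. No region of the table passed between phenotypes after stimulation (0% of 9681 tested, smallest adjusted p = 0.502 in Fisher's exact test with Benjamini-Hochberg adjustment, 292 with an unadjusted p under 0.05). As at rest, the smallest possible p of Fisher's exact test was 0.00216, so the lack of calls does not show that the phenotypes were alike. The rule bounds the stimulated difference in the chosen regions, so it is a description here.

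**Figure D3:**
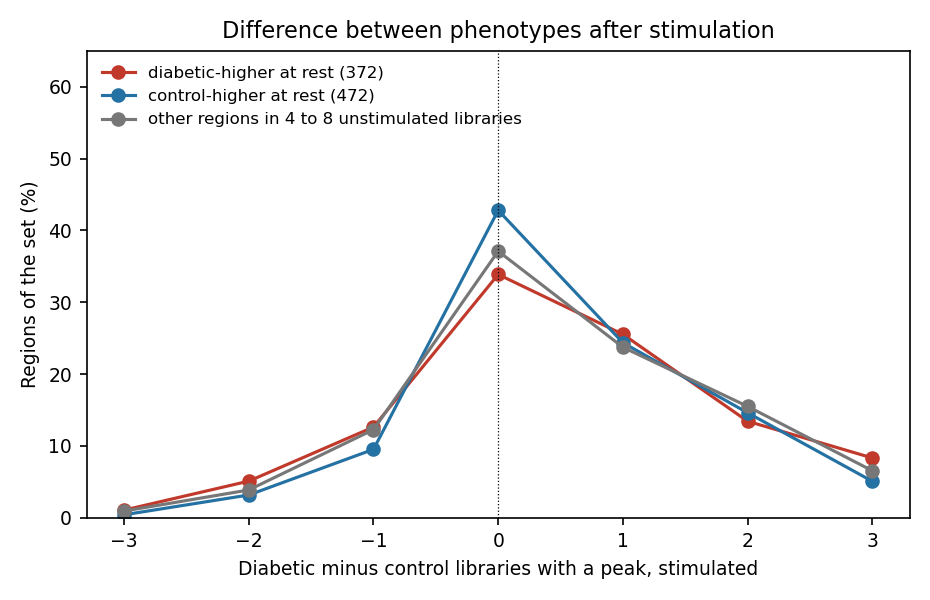
Percent of regions (vertical axis) by the number of diabetic minus control stimulated libraries with a peak (horizontal axis, bounded at 3 either way by the rule), for diabetic-higher regions (red), control-higher regions (blue) and other regions found in 4 to 8 unstimulated libraries (grey). The 3 curves peak at 0 and lean to the right, with mean differences of 0.513, 0.517 and 0.515 libraries.

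Each chosen region was placed in 1 of 5 states after stimulation. A region kept its side where the phenotype higher at rest was ahead by 2 or 3 stimulated libraries, and turned where it was behind by 2 or 3. The remaining regions, even within 1 library, were mostly absent (found in 0 to 3 of 12 stimulated libraries), in between (4 to 8) or mostly present (9 to 12). Exact binomial 95% intervals are given and cover counting error only, since regions share libraries.

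Absence from most libraries of both phenotypes was the most frequent fate on either side. Of the diabetic-higher regions, 175 were mostly absent (47.0%, interval 41.9% to 52.3%), and of the control-higher regions 223 (47.2%, interval 42.7% to 51.9%). Among the 13892 other regions, 44.8% were mostly absent. Mostly present were 31 diabetic-higher regions (8.33%, interval 5.73% to 11.6%) and 67 control-higher regions (14.2%, interval 11.2% to 17.7%), against 10.8% of the other regions. In between were 62 (16.7%) and 72 (15.3%), against 17.5% of the other regions.

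Among diabetic-higher regions, 81 kept their side (21.8%, interval 17.7% to 26.3%) and 23 turned (6.18%). Among control-higher regions, 17 kept their side (3.60%, interval 2.11% to 5.70%) and 93 turned to diabetic (19.7%, interval 16.2% to 23.6%). The other regions gave 22.1% with diabetic ahead by 2 or 3 libraries and 4.82% with control ahead. In both sets the share of regions ahead in diabetic stimulated libraries was thus near that of regions that were not chosen, and no fate was tested as particular to them.

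**Figure D4:**
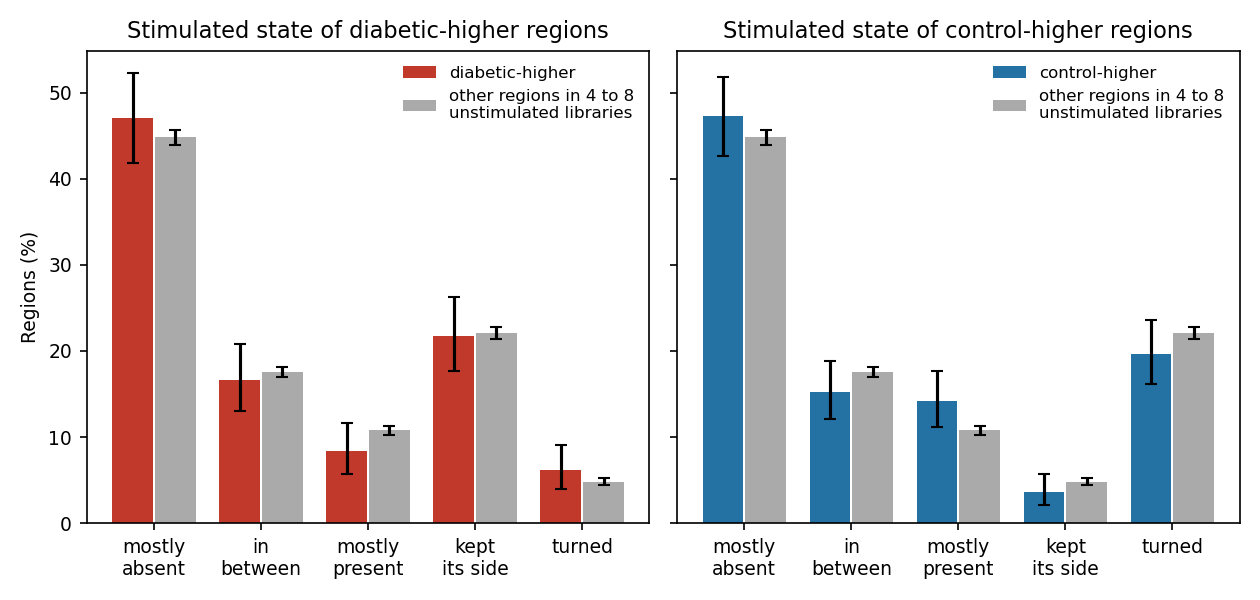
Percent of diabetic-higher (left, red) and control-higher regions (right, blue) in each of 5 states after stimulation, beside other regions found in 4 to 8 unstimulated libraries (grey), signed the same way, with exact binomial 95% intervals. Mostly absent is the tallest pair on both sides (47.0% and 47.2%, grey 44.8%), and the last 2 pairs change places between the panels because diabetic stimulated libraries are ahead in both.

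The leading regions of each state show these courses. Among mostly present ones, the diabetic-higher region within Mecom, the gene of a zinc finger factor of blood stem cells (chr3:30508047-30508923), had 12 to 18 tags in 5 diabetic stimulated, 10 to 13 tags in 5 control stimulated, 10 to 13 tags in 6 diabetic unstimulated and 11 tags in 1 control unstimulated library. Among those that kept their side, the diabetic-higher region within F7, the gene of coagulation factor VII (chr8:13031717-13031983), had 13 to 17 tags in 2 diabetic stimulated and 15 to 19 tags in 5 diabetic unstimulated libraries, and no peak in either control group. Its resting peaks are those that chose it, and its stimulated peaks are those that placed it in this state.

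The control-higher regions near Tmem18 and Yipf7 kept their side, with 3 and 1 diabetic stimulated against 5 and 3 control stimulated libraries. Among regions that turned, the diabetic-higher one 7157 bp from Glrx5, a gene of iron-sulfur cluster assembly, was found in 4 diabetic stimulated, 6 control stimulated, 6 diabetic unstimulated and 1 control unstimulated library. That near Hapln1, the gene of a cartilage link protein, was found in no diabetic stimulated, 2 control stimulated, 6 diabetic unstimulated and 1 control unstimulated library. The control-higher region near Rmi2, a gene of DNA repair, turned with 5 diabetic stimulated, 3 control stimulated, 1 diabetic unstimulated and 6 control unstimulated libraries. Its tag numbers, 9 to 15 in diabetic stimulated and 9 to 18 in control stimulated libraries, overlapped those at rest.

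How often a region was found after stimulation went with how many unstimulated libraries held it, whichever phenotype they came from. Diabetic-higher regions in 4 unstimulated libraries were found in 2.65 stimulated libraries of 12 on average, those in 6 in 3.80 and those in 8 in 4.95. The corresponding means were 3.15, 3.89 and 5.07 for control-higher regions, and 2.96, 3.90 and 5.31 for the other regions. No stimulated library held 69 of the diabetic-higher (18.5%) and 103 of the control-higher regions (21.8%), against 17.8% of the 13892 other regions. All 12 stimulated libraries held 5 diabetic-higher (1.34%) and 26 control-higher regions (5.51%), and 3.37% of all other regions in 4 to 8 unstimulated libraries.

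**Figure D5:**
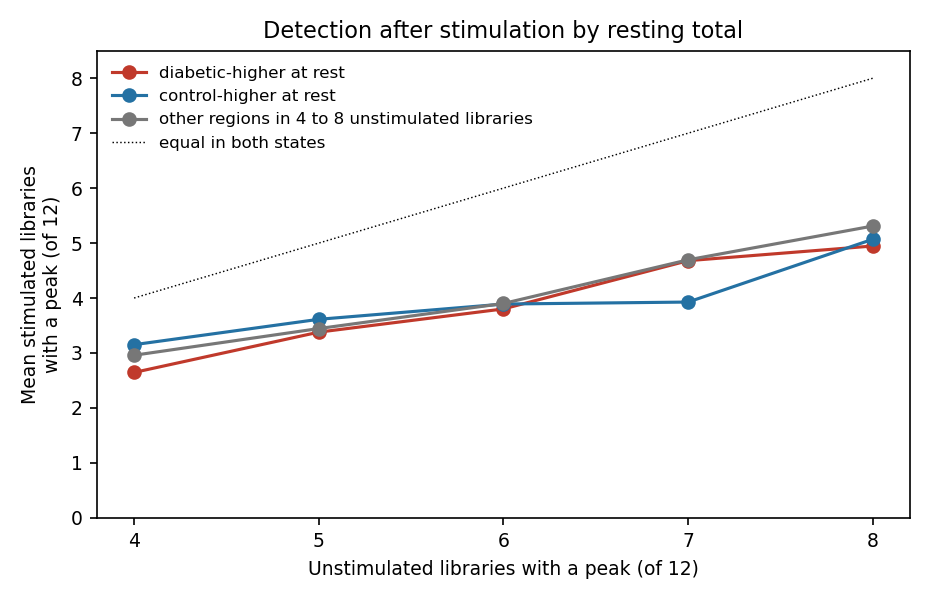
Mean number of stimulated libraries with a peak, of 12, by the number of unstimulated libraries with a peak, of 12, for diabetic-higher (red), control-higher (blue) and other regions (grey), with the dotted line where both states would be equal. All 3 lines lie below the dotted line, with means of 2.65, 3.15 and 2.96 at 4 unstimulated libraries and 4.95, 5.07 and 5.31 at 8.

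Pooling the phenotypes, 756 of the chosen regions could be tested for a change with stimulation by Fisher's exact test with Benjamini-Hochberg adjustment over the whole table. Of these, 24 were gained (3.17%, background 9.19% of 31219 tested regions) and 102 were lost (13.5%, background 18.9%), 126 in either direction (16.7%, background 28.1%). Of the 13328 tested other regions in 4 to 8 unstimulated libraries, 2.21% were gained and 9.25% lost, 11.5% in either direction. The chosen shares thus lay below those of all tested regions and above those of these other regions, and these differences were not tested. The other regions were not matched to the chosen ones in resting total, nor bounded in their stimulated difference. A resting total of 5, for example, was held by 29 diabetic-higher and 31 control-higher regions and by 3046 of the 13892 other regions. The chosen regions were found in 4 to 8 unstimulated libraries by construction, which bounds both counts. Their median difference was −2.5 libraries, stimulated minus unstimulated, against −2 libraries over all tested regions. The gained regions were 4 diabetic-higher and 20 control-higher, and the lost ones 37 and 65. With all merged regions in the adjustment, 8 gained and 16 lost regions passed. The resting libraries that chose the regions form an arm of this comparison, so its p-values are not given for single chosen regions.

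Within a phenotype, the resting libraries are those that chose the regions. In diabetic macrophages 15 chosen regions were gained, all control-higher (background 5.47%), and 15 were lost, all diabetic-higher (background 3.44%, and 8.92% in either direction). In control macrophages 11 were gained (background 8.41%) and 146 lost (background 27.5%, and 35.9% in either direction). The direction of these calls is fixed by the choice, and nothing is read from them.

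The gained regions were found in 11 or 12 of the 12 stimulated libraries, and the 4 described here were chosen after their values were seen. A diabetic-higher region within Lpp, the gene of a focal adhesion protein (chr16:24822488-24823268), had 16 to 26 tags in all 6 diabetic stimulated and 14 to 33 tags in all 6 control stimulated libraries. At rest it had 9 to 11 tags in 4 diabetic libraries and no peak in control libraries. Its diabetic stimulated tag numbers lay above its diabetic resting ones. A control-higher region within Pdgfc, the gene of a platelet-derived growth factor chain (chr3:81052283-81052738), had 16 to 33 tags in diabetic stimulated and 18 to 31 tags in control stimulated libraries, with all 12 found. At rest it had 23 tags in 1 diabetic and 15 to 27 tags in 5 control libraries, so its tag ranges overlapped between the states.

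Control-higher regions within Dock4 (chr12:40555024-40555501) and within Dennd6b (chr15:89190300-89190781) behaved alike. The Dock4 region had 15 to 35 tags in 6 diabetic stimulated, 18 to 25 tags in 5 control stimulated and 13 to 20 tags in 4 control unstimulated libraries. The Dennd6b region had 13 to 21 tags in 6 diabetic stimulated, 14 to 22 tags in 6 control stimulated and 7 to 12 tags in 4 control unstimulated libraries. Neither had a peak in diabetic unstimulated libraries. A control-higher region within Irak4, the gene of a kinase directly below Toll-like receptors (chr15:94564864-94565301), had 14 to 23 tags in 6 diabetic stimulated, 9 to 21 tags in 6 control stimulated, 9 tags in 1 diabetic unstimulated and 7 to 13 tags in 6 control unstimulated libraries. It was not called gained, and its tag ranges overlapped between stimulated and unstimulated control libraries.

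Of 1957 regions nearest to a gene of the 10 pathway and 8 marker lists, 22 were among the chosen regions (1.12%), 15 diabetic-higher and 7 control-higher. Over all regions near protein-coding genes the share was 1.02%, so the lists held chosen regions about as often as other genes. The classical activation list had 3 of 184 regions. The region at the promoter of Marco, a scavenger receptor of bacteria (chr1:120504674-120505064), had 9 tags in 1 diabetic stimulated library, no peak in control stimulated libraries, 7 to 12 tags in 6 diabetic unstimulated and 8 tags in each of 2 control unstimulated libraries. The region 12784 bp from Acod1, the gene of the enzyme that makes itaconate, had 18 to 29 tags in 5 diabetic stimulated, 19 to 23 tags in 4 control stimulated, 24 tags in 1 diabetic unstimulated and 21 to 28 tags in 6 control unstimulated libraries. Its tag numbers lay between 18 and 29 in every library with a peak. The region within Cybb, the gene of the oxidase subunit gp91phox, was found in 3 diabetic stimulated, 1 control stimulated, 2 diabetic unstimulated and 6 control unstimulated libraries.

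Alternative activation genes, which mark the repair-type macrophage state, had 3 of 144 regions, all diabetic-higher. The region 987 bp from Stat6, the signal transducer of interleukin 4 (chr10:127641798-127642138), had 12 to 18 tags in 6 diabetic stimulated, 12 to 23 tags in 5 control stimulated, 12 to 23 tags in 6 diabetic unstimulated and 13 to 18 tags in 2 control unstimulated libraries. Where found, its tag numbers overlapped in all 4 groups. Regions near Pdcd1lg2, the gene of the checkpoint ligand PD-L2, and near Il13ra1, an interleukin 13 receptor chain, were found in 5 and 2 diabetic stimulated and in 4 and 2 control stimulated libraries. At rest these were found in 6 and 4 diabetic and in 2 and 0 control libraries. None of the 3 regions at alternative activation genes kept a resting difference of 4 or more under the 3 other ways of calling a region found, given below. Of all 721 chosen regions near protein-coding genes, 331 were diabetic-higher.

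The trained immunity list, which holds genes named in work on lasting innate memory, had 2 of 209 regions. The region within Il6ra, the interleukin 6 receptor gene (chr3:89905472-89905781), had no stimulated peak, 9 to 11 tags in 5 diabetic unstimulated libraries and 8 tags in 1 control unstimulated library. The region 45212 bp from Tlr4, the gene of the LPS receptor (chr4:66891637-66891950), had 11 to 15 tags in 3 diabetic stimulated libraries, 8 tags in 1 control stimulated, 8 to 14 tags in 5 diabetic unstimulated and 11 tags in 1 control unstimulated library. It kept its side by 2 libraries. Among inflammatory cytokine genes, 1 of 136 regions was chosen, 37474 bp from Il1b, the interleukin 1 beta gene. It was found in 2 diabetic stimulated, 4 control stimulated, 4 diabetic unstimulated and no control unstimulated libraries.

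Negative feedback genes had 2 of 208 regions. The region within Tnfaip3, which encodes the NF-κB inhibitor A20 (chr10:19002065-19002337), was found in no diabetic stimulated library, in 1 control stimulated library with 22 tags, in 5 diabetic unstimulated libraries with 7 to 12 tags and in 1 control unstimulated library with 6 tags. The region at the promoter of Zfp36, the gene of the mRNA decay factor tristetraprolin (chr7:28379200-28379578), had 32 to 35 tags in 3 diabetic stimulated, 25 to 40 tags in 2 control stimulated, 34 to 42 tags in 2 diabetic unstimulated and 27 to 40 tags in 6 control unstimulated libraries. Zfp36 thus combined many tags with a peak in only some libraries of 3 groups.

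Lipid handling genes had 2 of 199 regions, at Apoe and Plin2, and glucose and insulin genes 2 of 242, at Hk1 and Pik3r1. The diabetic-higher region in Apoe, the gene of a lipoprotein ligand made by macrophages, was found in 5 diabetic stimulated, 3 control stimulated, 4 diabetic unstimulated and no control unstimulated libraries. The control-higher region 26804 bp from Plin2, a lipid droplet coat gene, was found in 2 diabetic stimulated, no control stimulated, 1 diabetic unstimulated and 6 control unstimulated libraries. The diabetic-higher region in the hexokinase gene Hk1 had 8 to 14 tags in 4 diabetic unstimulated libraries and no other peak. The control-higher region in Pik3r1, a regulatory subunit gene of phosphoinositide 3-kinase, was found in 1 diabetic stimulated, 4 control stimulated, 1 diabetic unstimulated and 5 control unstimulated libraries.

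Myeloid transcription factor genes had 3 of 276 regions. The control-higher region 11530 bp from Fosb, an AP-1 gene, had 17 to 21 tags in 2 diabetic stimulated, no peak in control stimulated, 23 tags in 1 diabetic unstimulated and 18 to 28 tags in 5 control unstimulated libraries. The diabetic-higher region nearest to Jun, another AP-1 gene, lay 42658 bp away and was found in 1 diabetic stimulated, no control stimulated, 5 diabetic unstimulated and 1 control unstimulated library. The third lay in Tfec, a macrophage factor related to Mitf. Interferon response genes had 1 of 129 regions, at Oas1a, found in 5 diabetic stimulated, 4 control stimulated, 4 diabetic unstimulated and no control unstimulated libraries. Antigen presentation genes had 0 of 58.

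Marker lists of cell types gave 3 chosen regions, all diabetic-higher. None of these kept a resting difference of 4 or more under the 3 other ways of calling a region found, given below. The region within Mertk, a receptor for dying cells on macrophages, was 1 of 83 regions at macrophage markers and was found in 4 diabetic unstimulated libraries only. The region near the B cell gene Blk was found in 1 diabetic stimulated, 1 control stimulated and 4 diabetic unstimulated libraries, and that near the T cell gene Cd28 in 2 diabetic stimulated, no control stimulated, 5 diabetic unstimulated and 1 control unstimulated library. No region at neutrophil, erythroid, stromal, dendritic or mast cell markers was chosen.

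Some genes had more than 1 chosen region. Of the 844 regions, 721 lay in or within 50 kb of 690 protein-coding genes, of which 29 had 2 regions and Sfi1 had 3. Of these 30 genes, 13 had regions of both directions. The kinase gene Lyn, which acts in immune receptor signalling, had 2 control-higher regions, both mostly present after stimulation. The stronger (chr4:3786707-3787191) had 12 to 34 tags in 6 diabetic stimulated, 21 to 23 tags in 6 control stimulated, 7 to 8 tags in 2 diabetic unstimulated and 8 to 13 tags in 6 control unstimulated libraries. Its control stimulated tag numbers lay above all its unstimulated ones. Cd48, the gene of a leukocyte adhesion receptor, had 2 control-higher regions, of which 1 was absent after stimulation and the other was found in 4 diabetic stimulated and 2 control stimulated libraries. The 3 regions within Sfi1, a centrosome protein gene, had 34 to 63 tags wherever a peak was called, against a median of 9 tags over all chosen regions at rest in the phenotype where they were higher.

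The chosen regions were weak and narrow. At rest, the peaks of the higher phenotype had a median of 9 tags at the summit in both sets, with 6 to 17 tags between the 5th and 95th percentiles. Their median width was 353.5 bp and their median fold over background 4.98, against 349 bp and 4.95 for the other regions in 4 to 8 unstimulated libraries. Regions found in every library had a median width of 729 bp and a median fold of 9.10. Diabetic-higher and control-higher regions were alike in width (354.5 and 351.5 bp) and in fold (4.93 and 5.05). The 398 regions that were mostly absent after stimulation were narrower than the 98 that were mostly present (318 and 458 bp) and had a lower median fold (4.90 and 5.75). A region spans all the peaks joined in it, so its width can grow with the number of libraries that hold a peak. The part that this plays in the widths was not tested.

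The position of the regions was compared with that of the other regions in 4 to 8 unstimulated libraries. A gene end lay within 1 kb of 8.89% of the chosen regions and of 8.87% of the other regions in 4 to 8 unstimulated libraries, but of 37.3% of the regions found in every library. Gene ends took 40 diabetic-higher (10.8%) and 35 control-higher regions (7.42%), and 41 (11.02%) and 82 (17.4%) lay beyond 50 kb of a gene, against 12.8% of the other regions in 4 to 8 unstimulated libraries. Chromosomes X and 11 were singled out after the counts per chromosome were seen. Chromosome X carried 2 diabetic-higher (0.538%) and 19 control-higher regions (4.03%), against 2.70% of the other regions in 4 to 8 unstimulated libraries. Chromosome 11 carried 32 and 16 of the chosen regions and 5114 of the 80598 regions found in 2 or more libraries. With the chosen regions set aside, chromosome X held 2.35% of the peaks of diabetic and 2.43% of those of control unstimulated libraries (two-sided exact permutation p = 0.0823, adjusted p = 0.274 over 20 chromosomes), and chromosome 11 held 6.37% and 6.21% (exact permutation p = 0.013, adjusted p = 0.242). Neither passed after adjustment, and the part that library composition plays in the chromosome counts was not tested.

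Promoter windows of 300 bases (from 250 before to 50 after the start) were overlapped by 36 chosen regions, 21 diabetic-higher and 15 control-higher, which touched 39 windows. The motifs searched on both strands of the 250 upstream bases were TGTGGT (RUNX), GAGGAAGT (PU.1), TGANTCA (AP-1), TTGCNNAA (C/EBP), and the consensus motifs of NF-κB and of the interferon-stimulated response element. An AP-1 match was held by 6 of the 39 promoters (15.4%) and by 6.75% of all 32851 promoters, and a RUNX match by 3 (7.69%) and 14.05%. PU.1 matches were in 2 of 39 (5.13%) and 2.44%, interferon response elements in 2 (5.13%) and 2.98%, C/EBP matches in 4 (10.3%) and 9.56%, and NF-κB matches in 0 of 39 and 0.356%. The median promoter at a chosen region held 9 CpGs, against 6 over all promoters. The 39 promoters overlap a peak by choice, whereas the 32851 were not limited to windows with a peak, so the 2 sets are not alike in this respect. With 39 promoters these counts are a description, and a match is not a bound site.

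Which regions were uneven at rest changed with each of 3 other ways of calling a region found, and the cause was not tested. Of the 50 regions named by rule, 12 kept a resting difference of 4 or more with lists of equal length, 14 where peaks had to reach a −log10 q-value of 5, and 20 where a peak had to cover 50% of the region. Only those at Add3, Kcnn2, Plekha8, Lyz1, Plin2 and Fosb kept it under all 3 settings, and all 6 are control-higher. The resting difference at Hapln1 was 5 libraries towards diabetic and turned to −1 under the last setting.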

How the data were processed

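ATAC-seq libraries of 24 macrophage samples were analysed. Per the labels' protocols, each replicate used nuclei from 50000 cells, size selection kept fragments up to 1200 bp, and reads were single and 50 bp long. The submitters' processing notes list MACS2 2.1.1, Bowtie2 2.2.6, edgeR, DiffBind 2.4.8, Trim Galore 1.8 and FastQC 0.11.3, and the build mm10. The sources used here do not give their roles, the calling settings, any shift of reads for the Tn5 offset, or read totals. The authors deposited 1 narrowPeak list per library, 1274891 peaks in all, with a score, a fold enrichment, a −log10 p-value and a −log10 q-value for each peak. These values, the authors' own, served only for description, ranking and filtering inside each list. The highest q-value was 0.0499, so a region without a peak was below that threshold and was not shown to be closed.

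Summit tags were solved from the deposited fold, taken as (tags + 1) over (background + 1), and the −log10 p-value, taken as a Poisson tail, to within 0.003. A solution was found for 100% of the 8143 peaks in the chosen regions. Regions found in at least 2 libraries (80598) entered two-sided Fisher's exact tests on the number of libraries with a peak, adjusted by the Benjamini-Hochberg method over regions whose total allowed an unadjusted p under 0.05, and called below an adjusted 0.05. Library values were compared by exact permutation over 924 orders, whose smallest p is 0.00216. The tests were tested on simulated data with known changes. A region was assigned to the nearest protein-coding gene body within 50 kb in a RefSeq table of assembly GRCm38.p6, which need not be the gene it acts on, and the table has no exons or UTRs.

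The regions, the gene lists and the tests were chosen with earlier results of these data known. The regions named were the 10 of each direction with the largest resting difference (ties broken by the smallest stimulated difference, then the highest median −log10 q-value), up to 3 regions per gene list, the 2 leading regions per direction in each state after stimulation, and the leading promoters for sequences. Alternatives were lists of equal length, a −log10 q-value of at least 5, a peak covering 50% of a region, merging of summits with 100 bp on each side, a resting difference of 5, other bounds of the states, adjustment over all merged regions, a replicate block and leaving out each library. The bound on the background regions and the composition of the libraries were added after the data were seen. Python 3.11.15, numpy 2.4.6, scipy 1.17.1, pandas 2.3.3 and matplotlib 3.10.9 were used.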

Additional observations from a re-analysis of the deposited data

Results flagged for a closer look

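The number of diabetic-higher regions with a peak was far from the others in replicate 6 of the control stimulated macrophages. This library held 168 of the 372 regions and the other 5 control stimulated libraries held 67 to 97. The gap to its nearest neighbour was 0.703 of the range of the group, above Dixon's 95% critical value of 0.625 for 6 libraries, in 1 of 16 groups examined. The same library also held more of the other regions found in 4 to 8 unstimulated libraries than the rest of its group, 42.1% against 20.6% to 29.1%. Its peak list was the longest of the group, with 54960 peaks against 41385 to 48137, and the part that list length plays in its count was not tested. Without this library, 359 diabetic-higher and 466 control-higher regions met the rule.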

How the results depend on the processing

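The membership of the set was the least stable result. Of the 844 regions, 72 also met the rule with lists of equal length (690 regions there), 110 with peaks filtered to a −log10 q-value of 5 (699 regions) and 318 where a peak had to cover 50% of a region (1103 regions), whereas 832 were overlapped by the 938 regions found after merging summits. A resting difference of 5 left 57 diabetic-higher and 76 control-higher regions. Causes of these moves were not tested. Leaving out each library in turn gave 76 to 826 diabetic-higher and 125 to 985 control-higher regions, with the extremes where an unstimulated library was left out, which sets 5 against 6 libraries by construction. The means of 0.513 and 0.517 stimulated libraries became 0.595 and 0.480 with the stricter q-value, 0.575 and 0.431 where a peak covered 50%, and 0.480 and 0.426 with merged summits.

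Mostly absent was the most frequent state in both sets under every alternative run. With lists of equal length, diabetic-higher regions were 16.9% kept, 39.1% mostly absent and 17.5% mostly present, and control-higher regions 10.8% kept, 11.9% turned, 36.5% mostly absent and 23.2% mostly present. With the stricter q-value, diabetic-higher regions were 1.46% turned and 53.3% mostly absent. With a resting difference of 5, diabetic-higher regions were 3.51% turned, 36.8% mostly absent, 21.1% in between and 12.3% mostly present, and control-higher regions 15.8% turned, 53.9% mostly absent and 10.5% in between. With totals of 0 to 2 and 10 to 12 as bounds, diabetic-higher regions were 40.9% mostly absent, 25.8% in between and 5.38% mostly present, and control-higher regions 40.9% mostly absent and 23.9% in between. Without single libraries, diabetic-higher regions were 12.8% to 30.1% kept, 1.67% to 9.09% turned, 40.6% to 52.7% mostly absent, 12.8% to 21.2% in between and 3.56% to 13.4% mostly present. Control-higher regions were 1.50% to 7.31% kept, 9.77% to 26.2% turned, 39.0% to 56.0% mostly absent, 10.1% to 18.3% in between and 10.7% to 17.1% mostly present.

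Calls with stimulation moved as follows. Pooled gains numbered 13 with the stricter q-value, 6 where a peak covered 50% and 8 with all merged regions in the adjustment. Pooled losses numbered 60 with equal lengths, 46 where a peak covered 50%, 47 with merged summits and 16 with all merged regions. In diabetic macrophages, gains and losses were 52 and 49 with equal lengths, and gains 7 with the stricter q-value. In control macrophages they were 25 and 64 with equal lengths, gains 7 with the stricter q-value, and 1 and 68 where a peak covered 50%. Without single libraries, pooled gains ranged from 8 to 28 and losses from 50 to 125, those in diabetic macrophages from 4 to 33 and 7 to 37, and those in control macrophages from 2 to 17 and 29 to 273. The resting difference in peak number, −468 peaks, ranged from −1736 to 669 without single libraries and passed in none.

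The correlations of equally numbered libraries were weak. They cannot decide whether such libraries share a mouse, since weak correlation does not exclude it. Same-numbered libraries of both states correlated between −0.00979 and 0.00556 in diabetic and between −0.00065 and 0.00902 in control macrophages. As a block, they gave 13 pooled gains and 42 losses, and 2 gains and 52 losses in control macrophages. The Hapln1 region reversed, from a resting difference of 5 to −1, where a peak had to cover 50%. The weakest peaks of the chosen regions had 5 tags and the median one at rest 9, so a region a few tags short of a peak cannot be told apart from a closed one.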
